A study of Zea mays with 47 samples.

Results

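At a day temperature of 38°C, the leaves of 2 heat tolerant Flint inbred lines of maize, L043 and L012, were compared with those of 2 heat susceptible Flint inbred lines, L023 and L017. The 8 libraries were chosen by inbred line, pool and heat level, and they are 8 of the 47 RNA sequencing libraries of the series. A gene was described as differing only where both tolerant lines stood on one side of both susceptible lines. Such a gene is called agreeing below, and 364 of the 15541 genes tested (2.34%) met the condition.

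The series covers 8 inbred lines of 2 breeding pools, Flint and Dent, grown as seedlings in soil at 25°C, 32°C or 38°C by day. The study took the lines from an earlier seedling experiment in which they had been found tolerant or susceptible to heat. By the traits of the plants grown for this series, the study ranked the Flint lines from tolerant to susceptible as L043, L012, L023 and L017. It nevertheless placed all 4 among its more tolerant lines and considered only the Dent lines S070 and P040 susceptible by these traits. Each heat level was a separate growth chamber experiment, and each library was made from the leaf tissue of 5 plants of 1 line, cut from the middle of the youngest leaf that was fully grown. Tolerant Flint lines at 38°C were L043 (2 libraries) and L012 (2 libraries), and susceptible Flint lines at 38°C were L023 (2 libraries) and L017 (2 libraries). For comparison, the same Flint lines at 25°C (8 libraries) and 32°C (7 libraries, since L017 had 1) and the Dent lines at 38°C were used, of which S058 and S067 were tolerant and S070 and P040 susceptible (2 libraries each). Tolerance and any other difference between the 2 pairs of lines cannot be told apart. With 2 lines against 2, an exact two-sided permutation test over lines cannot give a p below 0.333, and the tests below measure the spread between pools of plants within a line. They therefore speak of these 4 lines and not of tolerant Flint lines in general.

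In plant cells, heat unfolds proteins, and heat stress transcription factors switch on genes for heat shock proteins, chaperones that bind unfolded proteins and help to refold them. Small heat shock proteins hold such proteins in a soluble state, while HSP101, HSP90 and HSP70 work with ATP. Heat also raises the load of reactive oxygen, which glutathione S-transferases, thioredoxins and the alternative oxidase of mitochondria help to limit, and it changes the supply of sugars by slowing photosynthesis.

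Total counts lay between 8241091 and 13912372 in the tolerant and between 7064246 and 9613933 in the susceptible libraries. A set of 14 genes with over 1% of the counts each took 55.0% to 69.2% of the counts in tolerant and 59.7% to 71.5% in susceptible libraries, and none of the 14 was called. The biological coefficient of variation was 0.285. Each of the 8 libraries was most like the 25°C and 32°C libraries of its own line. The summed level of 5 mesophyll markers was 1948 to 3834 counts per 1000000 counts of a library (CPM) in tolerant and 1603 to 2798 CPM in susceptible libraries, and that of 5 bundle sheath markers 842 to 1300 CPM against 409 to 941 CPM, with none of the 10 called. The 2 genes chosen as vascular markers summed to 20.9 to 72.3 CPM in tolerant and 52.6 to 71.1 CPM in susceptible libraries. Of these, sut1 (GRMZM2G034302) was not called (log2 difference -0.29, adjusted p = 0.458 with edgeR's quasi-likelihood test). GRMZM2G140107 was called lower (log2 difference -1.73, adjusted p = 0.0215 in the same test), with L043 overlapping the susceptible lines. It was chosen under the name sps1, that of a sucrose synthesis gene, so its value does not speak for vascular cells. The part of these ranges in the results was not tested, and in leaf tissue fewer cells of a type and less RNA per cell cannot be told apart.

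At 38°C, a class I small heat shock protein, a thioredoxin, a cysteine protease and an asparagine synthetase were higher in L043 and L012 than in L023 and L017. So were the sucrose synthesis gene sps1 (GRMZM5G875238) and 1 alcohol dehydrogenase. Of 19 glutathione S-transferases, enzymes of detoxification, 4 were lower in both lines, as were the transporter mrpa1, both alternative oxidase genes aox2 and aox3, the jasmonate synthesis gene opr1, the receptor-like kinase lrk1 and a potassium channel. Other heat shock proteins were called lower without agreement of the lines. The large chaperones and the photosynthesis genes did not pass the test. By edgeR's quasi-likelihood test at an adjusted p under 0.05 over all genes, 553 genes (3.56% of those tested) were higher and 413 (2.66%) lower in the tolerant lines, 6.22% together. Without single libraries these numbers fell to 222 and 190 (L017 replicate 2), 230 and 181 (L017 replicate 1), 261 and 218 (L023 replicate 2), 301 and 228 (L012 replicate 1), 306 and 238 (L023 replicate 1), and 350 and 262 (L043 replicate 1), and edgeR's likelihood ratio test called 1339 and 1205. Agreeing genes had to be called and to differ in the same direction by over 1 on the log2 scale in each of the 4 pairs of a tolerant with a susceptible line. They numbered 205 higher (1.32%) and 159 lower (1.02%).

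Among the other 602 called genes, 115 had at least 1 line pair of the other sign. The nearest gene inside the limit was GRMZM2G072529 with a smallest pair difference of 1.001, and the nearest outside was GRMZM2G412524 with 0.998. In 56 of the 364 agreeing genes (41 higher and 15 lower), which are 0.36% of all genes tested, each of the 4 line pairs passed the test by itself. Libraries of the 2 classes did not overlap in 202 of the 205 higher and 152 of the 159 lower genes, where 4.74% and 4.18% of all genes tested did so (8.91% together). The agreeing genes were chosen on these same 8 libraries, so both counts describe the choice and are no independent evidence. The median log2 difference over all genes tested was -0.00. Without any one of the 8 libraries, the sign of each of the 364 genes stayed the same, and 187 of them (108 higher and 79 lower) passed the test in all 8 repeats. The number still called ranged from 225 without L017 replicate 2, and 231 without L017 replicate 1, to 303 without L012 replicate 2.

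**Figure D1:**
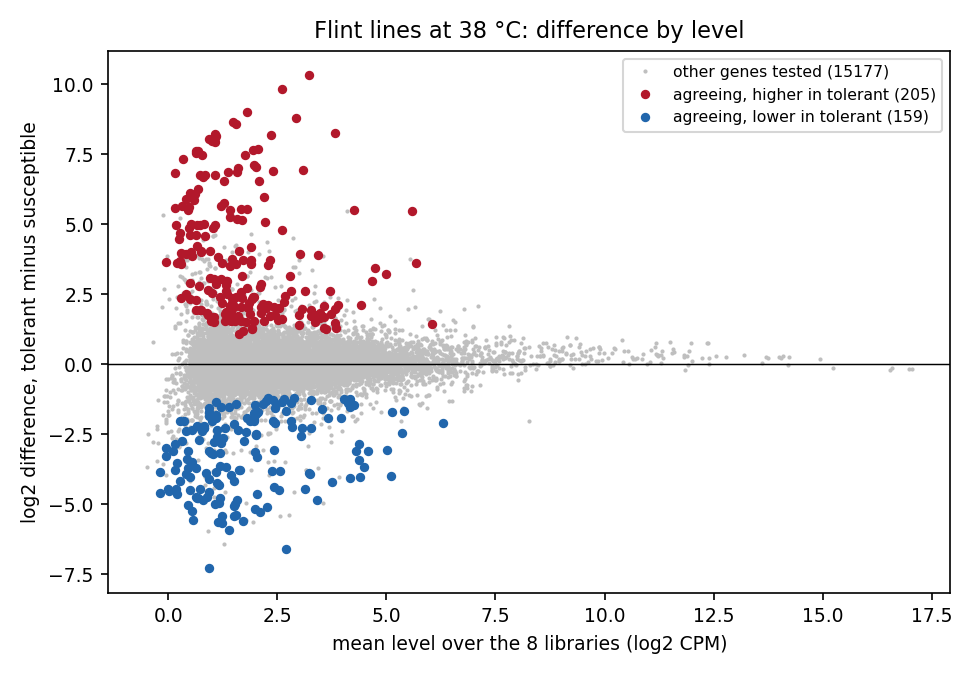
Each point is 1 of 15541 genes at 38°C, with its mean level over the 8 Flint libraries on the horizontal axis (log2 CPM) and the log2 difference, tolerant minus susceptible lines, on the vertical axis. Coloured points are the 205 agreeing genes higher and the 159 lower in tolerant lines. Their ends at 10.32 and -7.28 are genes without a count in one class, whose fitted values depend on the prior count.

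Many of the largest differences were those of genes with hardly a count in one class. Of the 205 higher genes, 19 had no count in any of the 4 susceptible libraries, and 34 had 1 to 3 counts in all of them together. Of the 159 lower genes, 1 had no count and 5 had 1 to 3 counts in the tolerant libraries. Where a whole line had no count, as in GRMZM2G422240, GRMZM2G112100 and GRMZM2G324671, the fitted log2 difference depends on the prior count and is no bound. The class means differed over 16-fold in 72 higher and 19 lower genes, and over 64-fold in 39 higher and 2 lower genes.

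AC198699.3_FG004 had 6.34 and 4.5 CPM in L043 and 20.5 and 10.2 CPM in L012, and no count in L023 and L017. With the floor of 3 counts over the susceptible libraries, it was at least 227-fold higher in the tolerant lines. For GRMZM2G175265, L043 had 6.62 and 3.58 CPM and L012 had 12.9 and 3.37 CPM, again with no count in L023 and L017 (at least 139-fold higher). In both genes every tolerant library held the transcript and no susceptible library did. GRMZM2G004278 (at least 75.4-fold), GRMZM2G560482 (at least 60.1-fold) and GRMZM2G426271 (at least 56.4-fold) showed the same picture. Of the 205 higher genes, 9 also had no count in any susceptible library at 25°C and 32°C. GRMZM2G306282, with 698 counts in the tolerant libraries and 1 count in the susceptible ones, had a ratio of 518 (95% interval 92.6 to 20480, counting error only), and GRMZM2G176028, with 1478 counts against 2, had a ratio of 548 (95% interval 151 to 4531). Neither the files nor the reference table names these genes. Reads were aligned to the genome of B73, another inbred line, so that a gene that a Flint line lacks and one whose sequence has diverged from B73 cannot be told apart from one that is silent.

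Among the named genes higher in tolerant lines, GRMZM2G158232, a class I small heat shock protein, had the lowest adjusted p. Its levels were 8.97 and 8.39 CPM in L043 and 34 and 33.2 CPM in L012, against 1.10 and 0.514 CPM in L023 and 0.176 and 0.155 CPM in L017. The lowest tolerant library was thus well above the highest susceptible one. The means were 21.1 ± 14.4 and 0.486 ± 0.441 CPM (SD, n = 4 each), 43.5-fold apart, with a log2 difference of 5.50 (SE 0.27, adjusted p = 0.00011), and each of the 4 line pairs passed the test. The neighbouring gene GRMZM2G422240, which the study's annotation puts in the heat stress class, had 1.07 and 1.59 CPM in L043 and 7.08 and 3.95 CPM in L012, against 0.845 and 0.0856 CPM in L023 and none in L017. The means were 3.42 and 0.233 CPM (log2 difference 5.55, SE 0.77, adjusted p = 0.0066). Small heat shock proteins of class I are close copies of each other, and how reads were split between GRMZM2G158232 and its copies is uncertain. Another gene with the same protein name, GRMZM2G437100, averaged 5.62 ± 5.93 CPM in tolerant and 3.65 ± 2.63 CPM in susceptible lines (SD, n = 4 each), with a log2 difference of -0.02 (adjusted p = 0.989). In the same heat stress class, 2 genes were called lower in the tolerant lines, neither of them agreeing. GRMZM2G346839, annotated as a class IV heat shock protein, had 0.0712 and 0.0511 CPM in L043 and 0.560 and 0.988 CPM in L012, against 1.94 and 1.97 CPM in L023 and 1.64 and 0.876 CPM in L017, where the classes overlapped in 1 library each (log2 difference -2.80, SE 0.43, adjusted p = 0.00736). GRMZM2G024718, also annotated as a heat shock protein, ranged from 0.460 to 1.2 CPM in tolerant and from 1.37 to 3.16 CPM in susceptible libraries (log2 difference -1.51, SE 0.34, adjusted p = 0.0367). The classes did not overlap in the second gene, and in L012 both genes were nearer to the susceptible lines than in L043.

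For 4 other chaperones, HSP101, HSP26, HSP70 and hsp82, which were named whatever their values, the classes did not differ past the threshold. HSP101, the chaperone that pulls aggregated proteins apart (GRMZM2G360681), averaged 17.1 ± 17.2 CPM in tolerant and 17.9 ± 6.02 CPM in susceptible lines (SD, n = 4 each; log2 difference -0.30, adjusted p = 0.824). The plastid small heat shock protein HSP26 (GRMZM2G149647) had 3.13 and 2.86 CPM in L043 and 87.3 and 22.4 CPM in L012, against 6.68 and 6.17 CPM in L023 and 13.4 and 4.17 CPM in L017. Here the tolerant lines lay on either side of the susceptible ones (log2 difference 0.76, adjusted p = 0.430). Adjusted p was 0.943 for HSP70 (GRMZM2G310431), with 43.4 ± 15.2 CPM in tolerant and 40.6 ± 15.6 CPM in susceptible lines, and 0.638 for hsp82, an HSP90 (GRMZM5G833699), with 26.3 ± 24.5 and 29.5 ± 11.2 CPM (SD, n = 4 each). In some cases the libraries of a line differed much: HSP101 had 42.1 and 9.92 CPM in L012 and 13.4 and 3.02 CPM in L043. In others they were close, as for HSP26 in L043 and in L023.

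Genes of redox balance, protein breakdown and nitrogen were among the higher ones. GRMZM2G014055, a thioredoxin of type h, a small protein that reduces disulfide bonds, had 9.04 and 12.5 CPM in L043 and 10.6 and 5.57 CPM in L012, against 0.0845 and 0.0856 CPM in L023 and 0 and 0.103 CPM in L017. It averaged 9.44 ± 2.95 CPM in tolerant and 0.0683 ± 0.0463 CPM in susceptible lines (SD, n = 4 each), 138-fold apart, and its log2 difference was 6.94 (SE 0.48, adjusted p = 0.000283). All 4 line pairs were called. A second thioredoxin h gene, trh1 (GRMZM2G079089), ranged from 4.84 to 10.3 CPM in tolerant and from 1.64 to 2.48 CPM in susceptible libraries (log2 difference 1.77, SE 0.23, adjusted p = 0.00358).

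Vignain (GRMZM2G070011), a cysteine protease known from senescing and germinating tissue, had 10.2 and 26 CPM in L043 and 36.8 and 36.6 CPM in L012, against 7.95 and 3.94 CPM in L023 and 0.996 and 0.876 CPM in L017. The level was high in L012, low in L017 and nearer between L043 and L023. Its mean was 7.97-fold higher in tolerant lines (log2 difference 3.44, SE 0.36, adjusted p = 0.00167). The subtilase GRMZM2G112100, a serine protease, had 4.34 and 2.05 CPM in L043 and 7.08 and 3.01 CPM in L012, against 0 and 0 CPM in L023 and 0.0586 and 0.155 CPM in L017 (means of 4.12 and 0.0533 CPM, log2 difference 7.11, SE 0.74, adjusted p = 0.00226).

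An asparagine synthetase (GRMZM2G078472), which moves nitrogen from glutamine into asparagine, had 1.07 and 3.94 CPM in L043 and 21.7 and 7.01 CPM in L012, against 1.01 and 0.343 CPM in L023 and 0.293 and 0.155 CPM in L017. L043 replicate 1 and L023 replicate 1 were nearly level, and the other tolerant libraries stood apart. The log2 difference was 3.93 (SE 0.61, adjusted p = 0.00787). A related gene, asn3 (GRMZM2G053669), had 3.77 and 7.93 CPM in L043 and 181 and 9.88 CPM in L012, against 9.30 and 1.46 CPM in L023 and 0.176 and 0.876 CPM in L017, and missed the threshold (log2 difference 3.78, adjusted p = 0.0578).

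In carbohydrate metabolism, sps1 (GRMZM5G875238), a sucrose-phosphate synthase and so an enzyme at the control point of sucrose synthesis, had 64.4 and 64.3 CPM in L043 and 54.9 and 39.9 CPM in L012, against 17.2 and 17.5 CPM in L023 and 18.3 and 28.2 CPM in L017. All tolerant libraries lay above all susceptible ones, and the means were 55.9 ± 11.5 and 20.3 ± 5.30 CPM (SD, n = 4 each), 2.76-fold apart (log2 difference 1.45, SE 0.21, adjusted p = 0.00582). GRMZM2G140107, given above with the markers, was chosen under the name sps1 too and was called lower in tolerant lines (log2 difference -1.73, adjusted p = 0.0215). It was also lower at 25°C (log2 difference -1.86, adjusted p = 0.000218, edgeR's quasi-likelihood test). The alcohol dehydrogenase gene adh2 (GRMZM2G098346), whose enzyme turns acetaldehyde into ethanol in fermentation, ranged from 5.08 to 9.75 CPM in tolerant and from 1.2 to 2.87 CPM in susceptible libraries (log2 difference 1.98, SE 0.30, adjusted p = 0.00675). GRMZM2G011240, annotated to major carbohydrate metabolism, had a log2 difference of 2.20 (adjusted p = 0.00816), and the transcription factor gene bHLH129 (GRMZM5G856837) had one of 1.69 (SE 0.19, adjusted p = 0.00195). In the opposite direction, du1 (GRMZM2G141399), a starch synthase, had 0.080 to 0.314 CPM in tolerant and 0.423 to 1.96 CPM in susceptible libraries (log2 difference -2.36, adjusted p = 0.0258). Its call was lost without L012 replicate 1 (adjusted p = 0.0645), L023 replicate 2 (0.133), L043 replicate 1 (0.0723) or L043 replicate 2 (0.0632), and it was too low to be tested without either L017 library.

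Other higher genes with a known role lost their call without single libraries, while their log2 differences stayed positive. Lichenase-2 (GRMZM2G137535), a glucanase, had 3.91 and 4.24 CPM in L043 and 193 and 27.3 CPM in L012, against 2.45 and 0.514 CPM in L023 and 0.820 and 3.09 CPM in L017, and was thus high in L012 and only a little above the susceptible lines in L043. Its log2 difference was 3.61 (SE 0.72, adjusted p = 0.0223), and adjusted p became 0.0914 without L017 replicate 1, 0.0554 without L017 replicate 2 and 0.0854 without L023 replicate 2, with log2 differences of 3.28, 4.23 and 3.26. The aquaporin gene pip2c (GRMZM2G081192), for a water channel of the plasma membrane, ranged from 1.21 to 15.2 CPM in tolerant and from 0.423 to 1.41 CPM in susceptible libraries. These ranges overlapped (log2 difference 2.62, adjusted p = 0.0192), and the call was lost without L017 replicate 2 (0.0753), L023 replicate 1 (0.0733) or L043 replicate 2 (0.0636), at log2 differences of 2.33, 2.37 and 2.10. ACO31 (GRMZM2G072529), an ACC oxidase, which makes the hormone ethylene, ranged from 4.65 to 12.6 CPM in tolerant and from 1.19 to 3.97 CPM in susceptible libraries (log2 difference 1.83, adjusted p = 0.0152). It lost its call without L017 replicate 2 (0.0621), L023 replicate 1 (0.0546) or L023 replicate 2 (0.0634), at log2 differences of 1.6, 1.85 and 1.82.

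**Figure D2:**
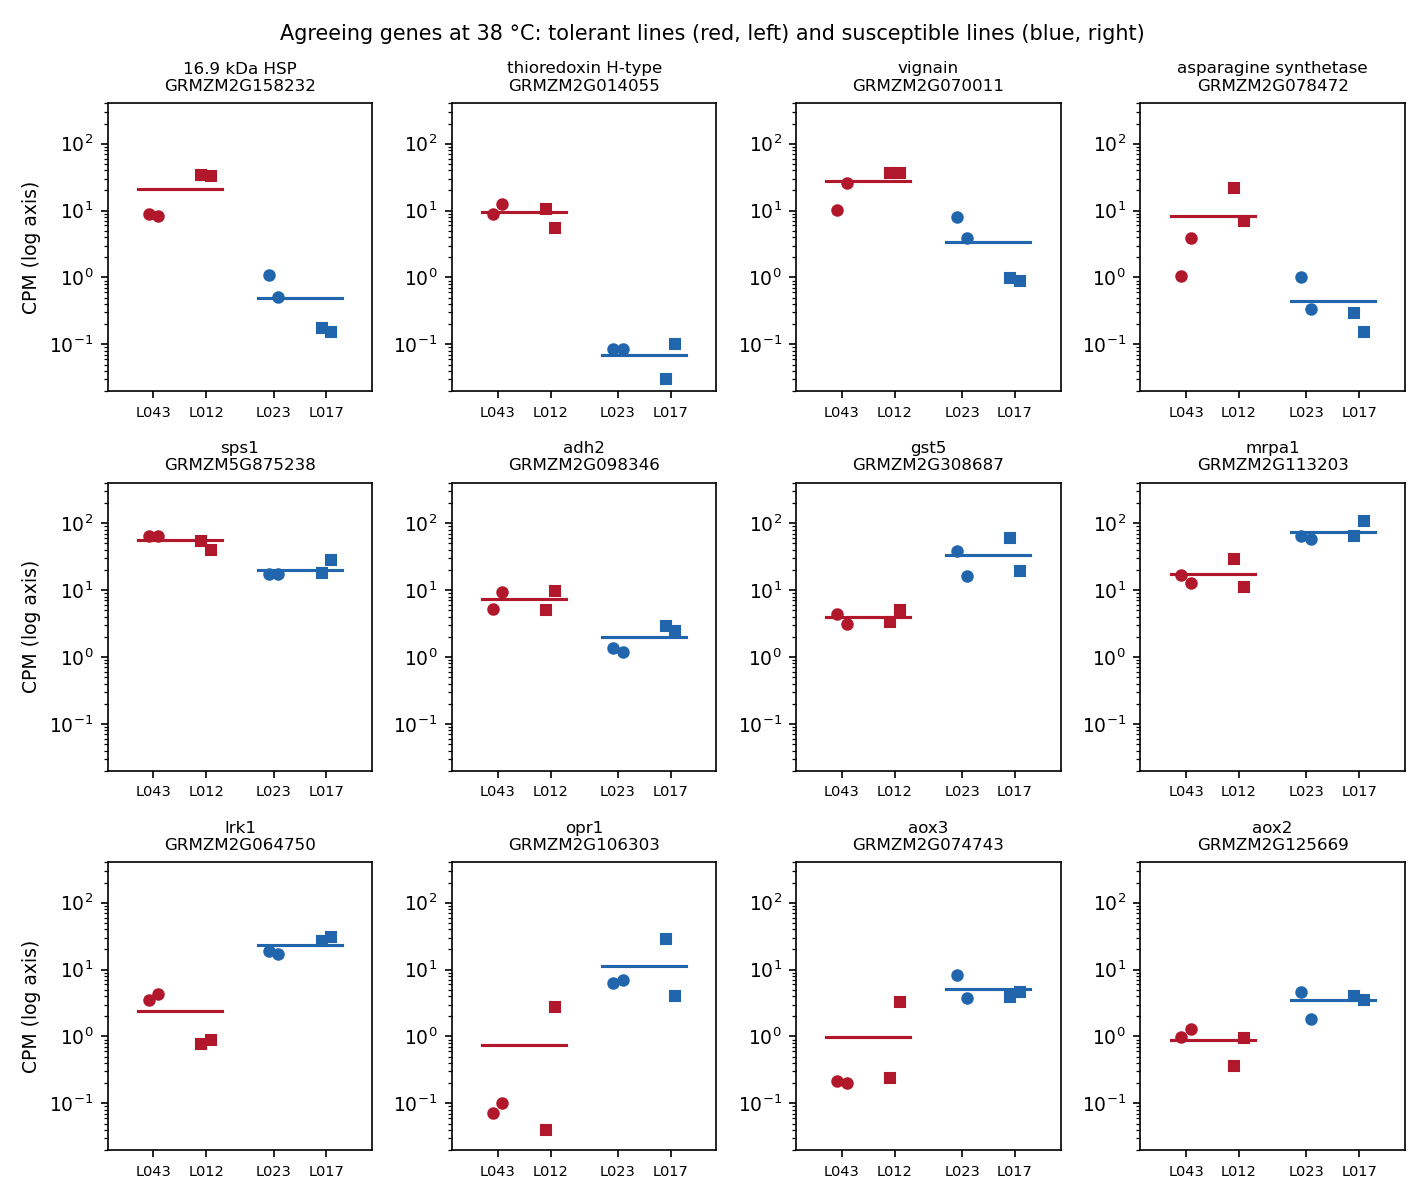
Levels of 12 agreeing genes at 38°C, in CPM on a log axis, with 1 point per library (libraries without a count at the lowest position) and the class mean as a line, tolerant lines in red and susceptible lines in blue. The small heat shock protein GRMZM2G158232 lies between 8.39 and 34 CPM in tolerant and between 0.155 and 1.10 CPM in susceptible libraries, and gst5, mrpa1 and lrk1 show the opposite order.

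Several of the named genes lower in tolerant lines were those of detoxification. Glutathione S-transferases couple glutathione to foreign or oxidized molecules, and transporters of the mrpa1 kind carry the products into the vacuole. gst5 (GRMZM2G308687) had 4.34 and 3.07 CPM in L043 and 3.36 and 4.98 CPM in L012, against 38.5 and 16.2 CPM in L023 and 59.9 and 19.2 CPM in L017. Every tolerant library was far below every susceptible one, the means of 3.94 and 33.5 CPM were 8.49-fold apart (n = 4 each), and the log2 difference was -3.08 (SE 0.43, adjusted p = 0.00501). In2-1 (GRMZM2G042639), of the same superfamily, had 5.0 to 6.48 CPM in tolerant and 10.7 to 16.4 CPM in susceptible libraries (log2 difference -1.22, SE 0.20, adjusted p = 0.0106). Both calls held without any one library.

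The calls of gst7 (GRMZM2G028556) and gst31 (GRMZM2G475059) were less firm. gst7 had 0.498 and 0.307 CPM in L043 and 0.400 and 0.404 CPM in L012, against 8.20 and 3.51 CPM in L023 and 9.84 and 0.825 CPM in L017 (log2 difference -3.80, SE 0.74, adjusted p = 0.0209). It lost its call without L012 replicate 1 (0.0890), L012 replicate 2 (0.0604), L023 replicate 1 (0.0633), L043 replicate 1 (0.0667) or L043 replicate 2 (0.0735). gst31 ranged from 1.35 to 6.92 CPM in tolerant and from 8.03 to 14.2 CPM in susceptible libraries (log2 difference -1.93, adjusted p = 0.040), and its adjusted p lay between 0.0642 and 0.130 without any one library of L043, L023 or L017.

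The transporter gene mrpa1 (GRMZM2G113203) had 17.1 and 12.8 CPM in L043 and 28.7 and 11 CPM in L012, against 65.0 and 57.0 CPM in L023 and 64.9 and 107 CPM in L017. The 2 classes were well apart, with means of 17.4 ± 7.98 and 73.4 ± 22.4 CPM (SD, n = 4 each) and a log2 difference of -2.08 (SE 0.33, adjusted p = 0.00809). GRMZM2G078465, in the study's functional class of UDP-sugar transferases, which add sugars to small molecules, had 0.320 to 1.07 CPM in tolerant and 7.45 to 13.4 CPM in susceptible libraries. Its log2 difference was -3.92 (SE 0.28, adjusted p = 0.000312) and all 4 line pairs were called. GRMZM2G098892 of the same class had a log2 difference of -3.17 (adjusted p = 0.011).

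Both tested genes named as alternative oxidases, which pass electrons of the mitochondrial chain to oxygen without pumping protons, were lower in the tolerant lines. aox3 (GRMZM2G074743) had 0.214 and 0.205 CPM in L043 and 0.240 and 3.28 CPM in L012, against 8.20 and 3.77 CPM in L023 and 3.93 and 4.64 CPM in L017. aox2 (GRMZM2G125669) had 0.997 and 1.28 CPM in L043 and 0.360 and 0.943 CPM in L012, against 4.65 and 1.80 CPM in L023 and 3.98 and 3.5 CPM in L017. In neither gene did the classes overlap, although aox3 of L012 replicate 2 came close to the susceptible libraries. The log2 difference of aox3 was -3.06 (SE 0.69, adjusted p = 0.0364) and that of aox2 was -2.02 (SE 0.38, adjusted p = 0.0186). The call of aox3 was lost, at adjusted p between 0.0634 and 0.115, without any one library of L043, L023 or L017. That of aox2 was lost without L012 replicate 1 (0.0561), L017 replicate 1 (0.0697), L017 replicate 2 (0.0573), L023 replicate 1 (0.0658) or L043 replicate 1 (0.0653).

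On the jasmonate list, opr1 (GRMZM2G106303), a 12-oxo-phytodienoic acid reductase, had 0.0712 and 0.102 CPM in L043 and 0.040 and 2.74 CPM in L012. Levels were 6.25 and 7.02 CPM in L023 and 28.2 and 4.02 CPM in L017. L012 replicate 2 stood nearest to the susceptible lines. The log2 difference was -4.84 (SE 1.05, adjusted p = 0.0307), and adjusted p became 0.0884 without L017 replicate 1, 0.0691 without L023 replicate 1, 0.0811 without L023 replicate 2, 0.109 without L043 replicate 1 and 0.101 without L043 replicate 2. Its close relative opr2 (GRMZM2G000236) averaged 1.2 ± 1.88 CPM in tolerant and 11.1 ± 10.4 CPM in susceptible lines (SD, n = 4 each) and did not pass the test (log2 difference -3.71, adjusted p = 0.0632). The copies are similar, and reads may have been split between them. For opr5, opr6 and opr7 the log2 differences were -0.56, 0.65 and 0.74, and none of these genes was called. Which of the reductases act in jasmonate synthesis was not tested.

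Named genes of signalling and ion transport that were lower were lrk1, K1 and CBL5. lrk1 (GRMZM2G064750), a receptor-like kinase, had 3.49 and 4.35 CPM in L043 and 0.760 and 0.898 CPM in L012, against 19.3 and 17.1 CPM in L023 and 26.7 and 30.8 CPM in L017. Tolerant libraries were low throughout, L012 lower than L043, and the log2 difference was -3.67 (SE 0.20, adjusted p = 0.00011) with all 4 line pairs called. The potassium channel gene K1 (GRMZM2G171279) had 0.040 to 1.94 CPM in tolerant and 3.47 to 8.97 CPM in susceptible libraries (log2 difference -3.82, SE 0.40, adjusted p = 0.00154). CBL5 (GRMZM2G041729), a calcium sensor of the calcineurin B-like family, had 0.225 to 0.767 CPM in tolerant and 1.86 to 2.58 CPM in susceptible libraries (log2 difference -2.27, SE 0.27, adjusted p = 0.00262). Over 19 genes of calcium signalling, 1 was called higher and 1 lower.

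Another member of that family, CBL10 (GRMZM2G116584), differed in the other direction, with 0.641 to 3.68 CPM in tolerant and 0.117 to 0.338 CPM in susceptible libraries (log2 difference 2.64, adjusted p = 0.040). Its call was lost without L012 replicate 2 (0.0656), L017 replicate 1 (0.150), L017 replicate 2 (0.108), L023 replicate 1 (0.105) or L023 replicate 2 (0.130), and it was not tested without L012 replicate 1 or L043 replicate 2. A chitinase (GRMZM2G145461), an enzyme of defence against fungi, had 0.427 and 0.0511 CPM in L043 and 0 and 0.853 CPM in L012, against 4.48 and 0.942 CPM in L023 and 6.62 and 26.1 CPM in L017. Its susceptible libraries varied widely (log2 difference -4.46, SE 0.93, adjusted p = 0.0267). The call was lost, at adjusted p between 0.0591 and 0.13, without L012 replicate 1, L017 replicate 2, L023 replicate 1 or either L043 library. Its list, pathogenesis-related proteins and protease inhibitors, lay mostly the other way. Of 13 genes tested, 9 lay above 0 (median 0.19), 2 were called higher and 1, the chitinase, lower.

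Of the unnamed lower genes, GRMZM2G324671 had 0.712 and 0.767 CPM in L043 and none in L012, against 5.49 and 6.77 CPM in L023 and 8.85 and 7.16 CPM in L017. It was low or absent in both tolerant lines (means of 0.370 and 7.07 CPM, log2 difference -6.60, SE 0.34, adjusted p = 0.000189). The single lower gene without a count in tolerant lines, GRMZM2G147491, annotated to secondary metabolism, had 5.92 and 2.74 CPM in L023 but only 0.176 and 0.361 CPM in L017, and was at least 50.3-fold lower in tolerant lines. Its adjusted p became 0.0532 without L017 replicate 2, and without either L023 library it was too low to be tested.

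Lists of genes by family or pathway were read against all genes tested, of which 3.56% were called higher and 2.66% lower, with a median log2 difference of -0.00. Among 14 genes with a heat shock protein symbol, a list that does not hold GRMZM2G158232, 0 were called higher and 1 lower, and the median was -0.39, with 12 of the 14 below 0. The one called was hsp18a (GRMZM2G404249), with 0.142 to 0.6 CPM in tolerant and 0.930 to 4.04 CPM in susceptible libraries (log2 difference -2.52, adjusted p = 0.0203), in which not all line pairs differed by over 1. No heat shock protein symbol was called higher by DESeq2 or had an unadjusted p under 0.05 in that direction. Of 5 heat stress transcription factors, which switch the chaperone genes on, edgeR's quasi-likelihood test called 0 (median -0.08), DESeq2 called 0, the likelihood ratio test called 1 lower, and 1 had an unadjusted p under 0.05.

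Of 19 glutathione S-transferases, 1 was called higher and 5 lower (31.6%, against 6.22% of all genes), with a median of -0.67. At an unadjusted p under 0.05, 5 were higher and 9 lower. DESeq2 called 1 higher and 7 lower, and the likelihood ratio test 4 and 7. Other lists also had shares called above 6.22%, such as starch and sucrose (26.3%) and aquaporins (18.75%). The 4 agreeing glutathione S-transferases are those given above. Of the other 2 called genes, gst10 (GRMZM2G096153) averaged 1.79 ± 0.540 CPM in tolerant and 4.47 ± 1.43 CPM in susceptible lines (log2 difference -1.29), and gst28 (GRMZM2G146475) averaged 1.77 ± 0.398 and 0.737 ± 0.378 CPM (log2 difference 1.37; SD, n = 4 each), and both had a line pair within 1. Of 19 jasmonate genes, opr1 was called lower and lox6 (GRMZM2G040095), a lipoxygenase, higher. For lox6 the tolerant libraries ranged from 12.8 to 101 CPM and the susceptible ones from 3.25 to 18.3 CPM, so the classes overlapped (log2 difference 1.99, adjusted p = 0.00918). Of 16 aquaporins 3 were called higher and 0 lower (median 0.25; DESeq2 also called 0 lower, and 1 had an unadjusted p under 0.05 in that direction), and of 19 genes of starch and sucrose 4 were called higher and 1 lower (median -0.07).

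Photosynthesis genes had positive medians but no call. The median was 0.30 over 12 genes listed under the C4 cycle, which concentrates carbon dioxide in the bundle sheath. That list was taken by symbol and also holds genes with a cdpk symbol, for calcium-dependent protein kinases. These are GRMZM2G115518, GRMZM2G173928 and GRMZM2G178756, at log2 differences of 0.05, 0.27 and 0.58. The median was 0.86 over 5 genes of Rubisco and Rubisco activase, 0.51 over 7 light-harvesting genes and 0.55 over 6 photosystem genes. With edgeR's quasi-likelihood test 0 were called in each of these lists, while 2, 4, 2 and 1 of their genes were higher at an unadjusted p under 0.05, and DESeq2 called 1, 1, 2 and 0 higher. In the C4 cycle, 1 gene was lower at an unadjusted p under 0.05, and the likelihood ratio test called 1 lower. All 10 tested genes listed under benzoxazinoids, defence compounds of grasses, had fitted log2 differences below 0 (median -0.61). Of these, 0 were called by either tool and 1 had an unadjusted p under 0.05. That list was taken by symbol too and also holds glu2, a beta-glucosidase, and igl1, at log2 differences of -0.73 and -0.01. The values of igl1 and of BX4 (GRMZM2G172491, -0.07) were close to 0. For bx1 (GRMZM2G085381) the tolerant lines lay on either side of the susceptible ones, with 144 and 46.8 CPM in L043 and 0.120 and 1.12 CPM in L012, against 17.3 and 26.3 CPM in L023 and 29.5 and 17.1 CPM in L017. Of 13 nitrogen and asparagine genes 0 were called (median -0.18), and DESeq2 called 1 higher. That list does not hold GRMZM2G078472, and it counts Nrt1.1 under 2 IDs with the same values in all 8 libraries, GRMZM2G041631 and GRMZM2G141491.

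The genes that the study had found to respond to heat over all lines were chosen on these samples and are no independent evidence. Of the 373 tested, 24 were called higher and 32 lower (15.0%), of which 14 and 19 were agreeing, with a median of -0.21. In their heat stress class 2 of 23 were called higher, and 2 lower, all 4 given above, and the median was -0.46. In the class of miscellaneous enzymes, where glutathione S-transferases and UDP-sugar transferases are filed, 2 of 27 were called higher and 5 lower (median -0.87), and in that of transport 0 of 19 were called higher and 3 lower (median -0.32). In that of signalling 2 of 22 were called higher and 0 lower, while DESeq2 called 1 lower and 3 were lower at an unadjusted p under 0.05. Of the genes whose heat response the study had tied to the heat tolerance of a line, 0 of 23 with a larger response in susceptible lines were called (DESeq2 also called 0, and 4 were higher and 1 lower at an unadjusted p under 0.05), and 1 of 9 with a larger response in tolerant lines was called higher. That gene, GRMZM2G041527, the ribonuclease P subunit POP1, had 1.80 to 3.06 CPM in tolerant and 0.234 to 0.930 CPM in susceptible libraries (log2 difference 1.72, adjusted p = 0.0202), and lost its call without L012 replicate 1 (0.0607), L017 replicate 1 (0.0584), L023 replicate 1 (0.0655), L023 replicate 2 (0.0757) or L043 replicate 1 (0.0593).

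**Figure D3:**
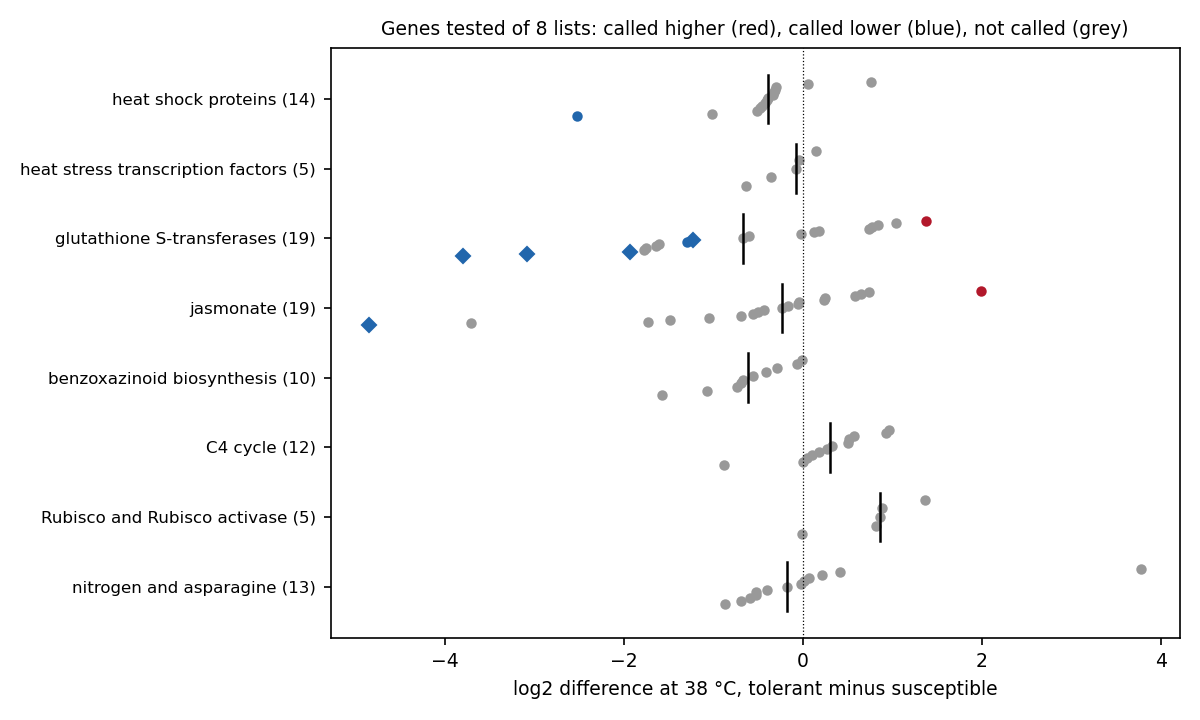
Each point is a tested gene of 1 of 8 lists, placed by its log2 difference at 38°C (tolerant minus susceptible); red is called higher, blue called lower, grey not called, diamonds are agreeing genes and black bars list medians. The glutathione S-transferases have a median of -0.67 with 4 agreeing genes below 0, and 12 of the 14 heat shock proteins lie below 0, from -2.52 to 0.76 with a median of -0.39. The C4 cycle list also holds genes of calcium-dependent protein kinases.

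The same lines at 25°C show which of these differences were there without heat. Of the 364 agreeing genes, 125 were high enough to be tested at 25°C, and 98 of them (53 higher and 45 lower) were called in the same direction, where 8.91% of the 8226 genes tested were called. Both lines of each side agreed at 25°C in the same direction in 37 of the higher and 36 of the lower genes, against 1.12% and 1.33% of all genes (2.44% together). When the genes tested at 38°C were all kept at 25°C, 363 agreeing genes could be tested. Of these, 353 had the same sign at both heat levels and 222 (136 higher and 86 lower) were called in the same direction, against 7.04% of the 15533 genes called in either direction. None was called in the opposite direction by edgeR's quasi-likelihood test, and 1 had an unadjusted p under 0.05 in that direction. In 1 L017 library of 25°C, replicate 2, transcripts that the other libraries of L017 lack reached 10.2% of their level in other lines, against 0.511% to 4.82% in the other 22 Flint libraries. Without it, 211 agreeing genes were called in the same direction (131 higher and 80 lower).

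At 32°C, where L017 had 1 library, levels were compared without a test. The tolerant and susceptible libraries did not overlap in the direction of 38°C in 153 of the 205 higher and 100 of the 159 lower genes, where 8.24% and 7.31% of all tested genes did so. At 25°C these numbers were 131 and 89 genes, with 4.39% and 4.5% of all genes. In 191 genes (115 higher and 76 lower) the libraries did not overlap at any of the 3 heat levels. The share of all genes tested that did so was not counted. At 38°C the lack of overlap largely followed from the choice of these genes.

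GRMZM2G158232, the small heat shock protein, already had 3.08 and 3.60 CPM in L043 and 9.38 and 5.46 CPM in L012 at 25°C, against none in L023 and 0 and 1.58 CPM in L017, where the single value above 0 was that of replicate 2. With the genes tested at 38°C all kept, the log2 difference at 25°C was 5.43 (adjusted p = 0.00101, edgeR's quasi-likelihood test). With the filter by level applied at 25°C, the same test gave 5.41 (adjusted p = 0.00518). Apart from L017 replicate 2, no susceptible library of 25°C had a count. At 32°C L043 had 5.92 and 4.22 CPM and L012 had 6.73 and 4.52 CPM, and no susceptible library had a count. With increasing heat levels the transcript was thus present in the tolerant lines at each level, and in both susceptible lines it was found in every library at 38°C.

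The thioredoxin GRMZM2G014055 had 35.9 to 69.6 CPM in tolerant lines at 25°C and 23.9 to 49.7 CPM at 32°C, against 0.0903 to 12.3 CPM and 0 to 0.422 CPM in susceptible lines. The 12.3 CPM again came from L017 replicate 2, and the other susceptible libraries of 25°C had 0.439 CPM or less. For adh2 (GRMZM2G098346) the levels at 25°C were 33.6 to 37.8 CPM in tolerant and 3.53 to 13.7 CPM in susceptible lines (log2 difference 2.30, adjusted p = 2.76e-05), higher in both classes than at 38°C, and the change in the difference was -0.32 (SE 0.38, adjusted p = 0.981). lrk1 (GRMZM2G064750) differed by -4.45 at 25°C (adjusted p = 5.92e-06). With the genes tested at 38°C all kept, gst5 (GRMZM2G308687) differed by -2.63 (adjusted p = 0.000259). With the filter by level applied at 25°C, edgeR's quasi-likelihood test gave -2.66 for gst5 (adjusted p = 0.000843).

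Other agreeing genes had no call at 25°C. sps1 (GRMZM5G875238) had 98.4 and 99.6 CPM in L043 and 295 and 184 CPM in L012 at 25°C, against 170 and 89.5 CPM in L023 and 128 and 135 CPM in L017 (log2 difference 0.23, adjusted p = 0.692). Its class means were 169, 99.3 and 55.9 CPM at 25°C, 32°C and 38°C in tolerant lines and 131, 56.1 and 20.3 CPM in susceptible lines. The asparagine synthetase GRMZM2G078472 had 0.0879 to 0.219 CPM in tolerant and 0.439 to 0.487 CPM in susceptible libraries at 25°C (log2 difference -1.64, adjusted p = 0.225). For opr1 (GRMZM2G106303) the ranges at 25°C were 0.180 to 0.656 CPM and 0.146 to 0.608 CPM (log2 difference 0.17, adjusted p = 0.944), and mrpa1 (GRMZM2G113203) differed by -0.69 (adjusted p = 0.513). The asparagine synthetase and opr1 were below the filter of 2 CPM in every one of these libraries. At so few counts a difference could hardly have been called, so their missing calls do not show equal levels.

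**Figure D4:**
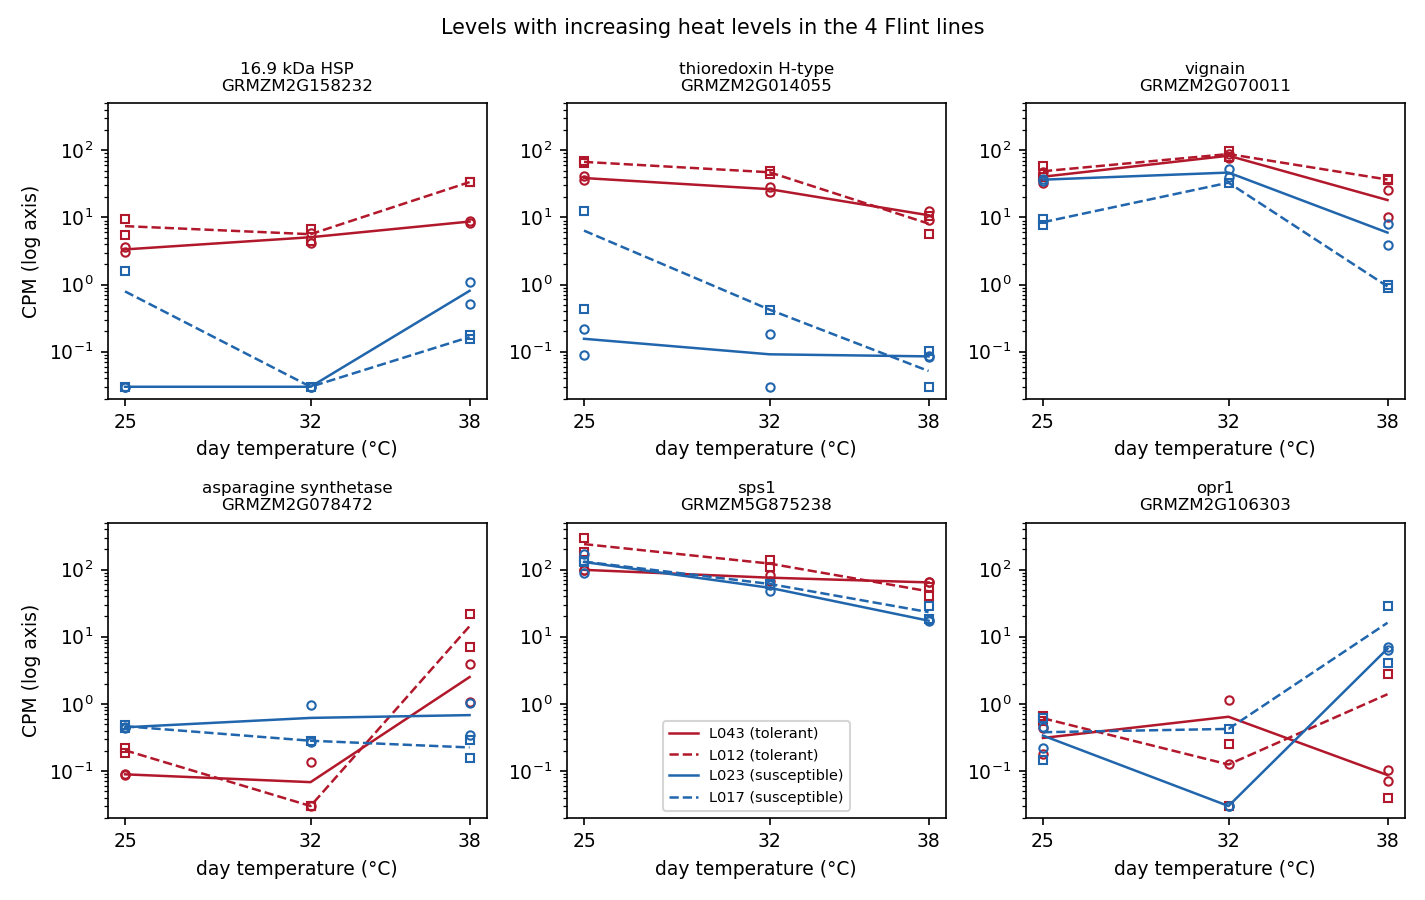
Levels of 6 agreeing genes in CPM (log axis) against day temperature, with 1 symbol per library (libraries without a count at the lowest position) and lines through the means of L043 and L012 (red) and L023 and L017 (blue). The small heat shock protein and the thioredoxin are apart at 25°C, whereas sps1 averages 169 CPM in tolerant and 131 CPM in susceptible lines at 25°C and 55.9 and 20.3 CPM at 38°C.

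Whether the difference between classes itself changed between 25°C and 38°C was tested over 16 libraries and 15603 genes. No gene passed with edgeR's quasi-likelihood test, where the smallest adjusted p was 0.0840 and 874 genes (5.60%) had an unadjusted p under 0.05. DESeq2 called 5 genes with a larger and 6 with a smaller value at 38°C, and edgeR's likelihood ratio test called 31 and 23. Of the agreeing genes, 44 (27 higher and 17 lower) had an unadjusted p under 0.05. These genes were chosen on the 38°C libraries that this test shares, so the count describes the choice and is no independent evidence. The same holds for the values of single agreeing genes below. For 82 agreeing genes p was at its upper limit, which can stand for a missing value and says nothing about the difference. The reason for this was not tested. The asparagine synthetase GRMZM2G078472 had a log2 change in the difference of 5.61 (SE 1.11) with an adjusted p of 0.312 in edgeR's quasi-likelihood test, 0.00236 in DESeq2 and 0.000847 in the likelihood ratio test. Vignain (GRMZM2G070011) had one of 2.11 (SE 0.42), with adjusted p of 0.312, 0.0108 and 0.00853 in the same order. Its class means at 25°C, 32°C and 38°C were 44.6, 85.5 and 27.4 CPM in tolerant lines and 22.5, 42.1 and 3.44 CPM in susceptible lines. For sps1 (GRMZM5G875238) the value was 1.22 (SE 0.34, adjusted p = 0.588).

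Most of the agreeing genes were not called in the Dent lines at 38°C. Of 16427 genes tested, 1782 (10.8%) were called, 5.88% higher and 4.97% lower. Of the 364 agreeing genes, 269 were tested in Dent, of which 32 (25 higher and 7 lower in Flint) were called in the same direction and 38 (18 and 20) in the opposite one. The sign was the same in 133 of the 269. Both lines of each side agreed in the same direction in 7 genes and in the opposite direction in 17 genes, where 1.25% of all genes agreed as higher and 0.67% as lower (1.92% together).

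GRMZM2G158232, the small heat shock protein, was among those called in the same direction. It had 6.73 and 5.04 CPM in S058 and 55.7 and 32.6 CPM in S067, against 0.818 and 1.45 CPM in S070 and 12 and 10.9 CPM in P040. In Dent the classes overlapped, since P040 was above S058 (log2 difference 2.19, SE 0.23, adjusted p = 0.000162). Its neighbour GRMZM2G422240 differed by 2.38 in Dent (adjusted p = 0.0032). With both lines of each side agreeing, GRMZM2G054397 was higher in the tolerant lines of both pools (adjusted p = 0.000431 in Flint and 2.92e-05 in Dent), with 2.15 to 4.56 CPM against 0 to 0.103 CPM in Flint and 2.60 to 5.48 CPM against 0 to 0.0691 CPM in Dent. GRMZM2G132875, unnamed, was lower in the tolerant lines of both pools. Its log2 difference was -4.02 in Flint and -2.89 in Dent (adjusted p = 0.000383 and 0.000122).

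In Dent the opposite direction was found for the subtilase GRMZM2G112100, at 4.12 against 0.0533 CPM in Flint and 1.04 against 2.90 CPM in Dent (class means, tolerant against susceptible), and gst7 (GRMZM2G028556), at 0.402 against 5.59 CPM in Flint and 1.79 against 0.324 CPM in Dent. lrk1 (GRMZM2G064750), lower in tolerant Flint lines, was called higher in tolerant Dent lines (log2 difference 1.27, adjusted p = 0.00236). For vignain (GRMZM2G070011), sps1 (GRMZM5G875238), gst5 (GRMZM2G308687) and mrpa1 (GRMZM2G113203) the Dent lines gave log2 differences of -0.32, -0.18, 0.08 and -0.43, none of them called (adjusted p between 0.23 and 0.875).

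**Figure D5:**
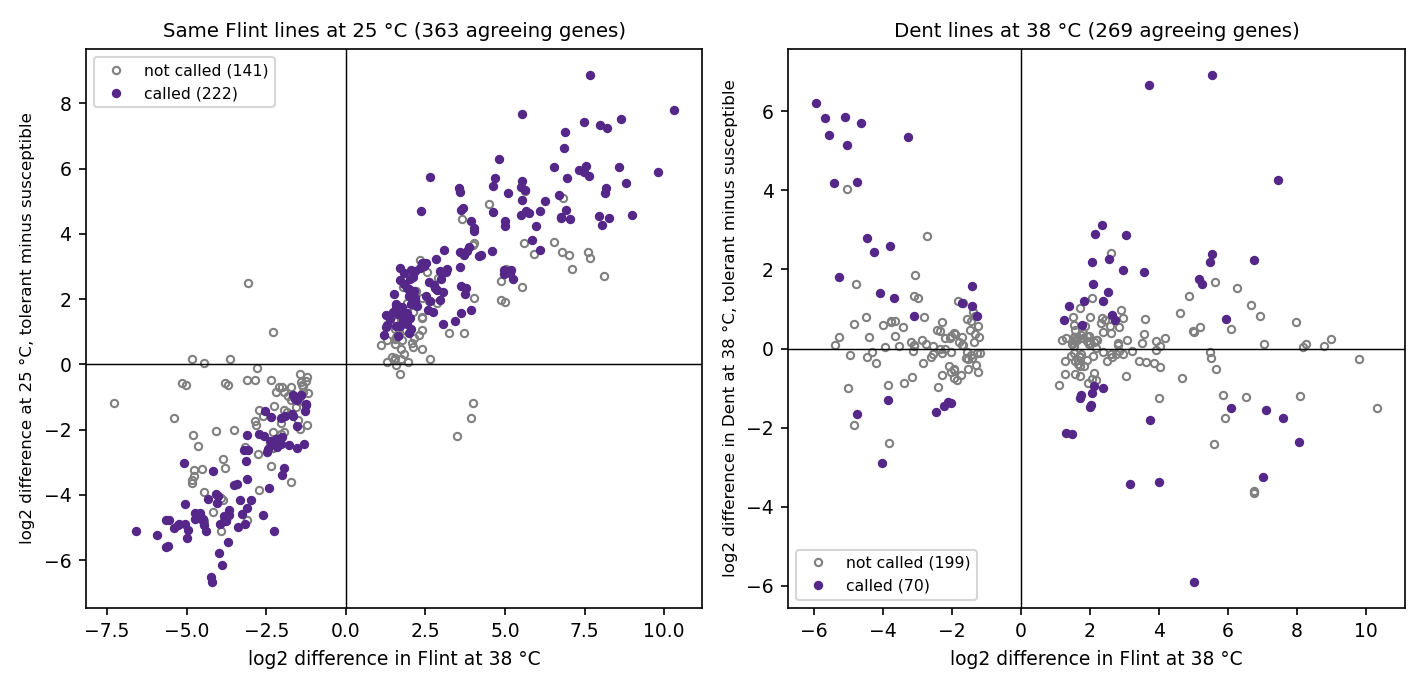
The log2 difference of each agreeing gene in Flint at 38°C (horizontal axis) against that of the same Flint lines at 25°C (left, 363 genes) and of the Dent lines at 38°C (right, 269 genes), tolerant minus susceptible, with called genes filled. On the left 353 genes lie on the same side of 0 on both axes and 222 are called, and on the right 133 lie on the same side and 70 are called.

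Of the agreeing genes, 174 could be placed on a chromosome through the reference gene table, along with 10618 of the genes tested. Of the 88 placed higher genes, 9 (10.2%) had another agreeing gene of the same direction as the next tested gene, against 1.64% of all placed genes next to such a gene, and for the 86 placed lower genes these shares were 11.6% (10 genes) and 1.61%. The genes form 9 runs, 1 of 3 genes and the others of 2 genes. The small heat shock protein GRMZM2G158232 and GRMZM2G422240 are 1 such pair, and aox2 (GRMZM2G125669) and aox3 (GRMZM2G074743) are another, so the members of a pair are not independent observations. Per chromosome, 1.04% to 2.32% of the placed genes were agreeing.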

How the data were processed

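Leaf RNA depleted of ribosomal RNA was sequenced as single-end reads. Alignment was to B73 RefGen_v3 by TopHat2 2.0.3, and the authors deposited raw counts per protein-coding nuclear gene for 17905 genes, those with at least 2 CPM in at least 2 libraries. Strand is not given in the sources used here, so overlapping and antisense genes cannot be told apart. Libraries were grouped by line and heat level, and the tolerance class of a line came from the study's methods.

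Genes with at least 2 CPM in at least 2 fitted libraries were tested with edgeR 4.0.16 (R 4.3.3), using TMM scaling, 1 mean per line and heat level, the quasi-likelihood test and Benjamini-Hochberg adjustment. The contrast was the mean of L043 and L012 minus the mean of L023 and L017. Log2 differences were fitted with a prior count of 0.125, and levels are CPM scaled over 47 libraries. The script was tested on simulated data. Alternatives were DESeq2 1.42.0, its size factors, edgeR's likelihood ratio test, other filters, a replicate block, thinned counts, larger fits and each library left out. Intervals and the floor of 3 counts cover counting error only. Names came from the RefSeq table (12358 IDs matched) and from the study's annotation.

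Named genes were the 12 largest differences in each direction at a mean of at least 1 log2 CPM, up to 20 agreeing genes per direction with a known name, up to 4 agreeing genes per list, those also agreeing at 25°C or in Dent lines, the genes above 1% of counts, and 4 chaperones. They number 82 agreeing genes. Members and lists were chosen with earlier results of these data known. Other genes named, such as opr2, asn3, bx1, GRMZM2G437100, GRMZM2G346839 and GRMZM2G024718, were chosen after their values were seen.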

Additional observations from a re-analysis of the deposited data

Results flagged for a closer look

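In 6 of the 82 named agreeing genes the tolerant and susceptible lines differed in opposite directions in the 2 pools at 38°C, with no overlap of libraries in either pool. The difference between the pools was itself not tested, and the named genes were in part chosen for agreement within Dent lines. The lack of overlap in Flint largely followed from the choice of agreeing genes. The share of all genes tested that differed in this way was not counted, so the 6 genes are a description only. Of all 269 agreeing genes tested in Dent, 17 agreed there in the opposite and 7 in the same direction. Values are fitted log2 differences, tolerant minus susceptible, which are no bounds where a line had no count. GRMZM2G434572 had -5.92 in Flint and 6.21 in Dent, with 0 to 0.307 CPM against 1.71 to 4.48 CPM in Flint and 1.74 to 3.26 CPM against 0 to 0.198 CPM in Dent. GRMZM2G152408 had -5.08 and 5.85, and AC233900.1_FG002 had -5.66 and 5.82. All 3 were near absent from the tolerant lines of one pool and the susceptible lines of the other. AR5 (GRMZM2G087507) had -4.24 in Flint and 2.44 in Dent, and gst7 (GRMZM2G028556), a glutathione S-transferase, had -3.80 and 2.59. The subtilase GRMZM2G112100 was the single one of the 6 that was higher in tolerant Flint lines, with 7.11 in Flint and -1.55 in Dent. Each class of a pool holds 2 lines.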

How the results depend on the processing

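Counts of genes are given as higher and lower in tolerant lines. At 38°C the likelihood ratio test called 1339 and 1205 genes, the fit of all libraries of 38°C 1066 and 747, and that of all 47 libraries 1044 and 760. With the same sign alone asked of the 4 line pairs, 473 and 378 genes agreed, and with each pair called 41 and 15. At 25°C agreeing genes numbered 223 and 228 with no filter, 183 and 209 with filterByExpr, 209 and 228 with the abundant genes left out, 196 and 212 for the genes tested at 38°C, and 212 and 188 for these without L017 replicate 2, the last 2 settings chosen after seeing the data. The agreeing genes of 38°C that were called alike at 25°C numbered 222, 186, 212, 222 and 211 under these settings. For the change of the difference between 25°C and 38°C, DESeq2 called 5 and 6 genes, the likelihood ratio test 31 and 23, and the replicate block 2 and 2. With single libraries left out, genes called at 38°C ranged from 222 to 498 and from 181 to 458, and agreeing genes from 135 to 211 and from 90 to 178, with both lowest agreeing counts without L017 replicate 2 (135 and 90), followed by L017 replicate 1 (140 and 96). Agreeing genes at 25°C ranged from 63 to 104 and from 86 to 101, the members called there from 77 to 102, agreeing genes in Dent from 129 (without S067 replicate 1) to 289 and from 81 to 128, members called in Dent from 19 to 38 alike and from 30 to 47 opposite, and genes called for the change of the difference from 0 to 4 and from 0 to 11 (both without L012 replicate 2 of 38°C). The replicate numbers were shared across lines, and the deviations of same-numbered libraries correlated between -0.0628 and 0.345 at 38°C, 0.0969 and 0.389 at 25°C and -0.129 and 0.235 in Dent. As not every pair of lines was above 0.1, the numbers were not taken to pair the libraries, although 5 of 6 pairs were at 38°C and at 25°C. With the replicate block, 772 and 589 genes were called at 38°C (214 and 168 agreeing), 526 and 558 at 25°C (94 and 115) and 1000 and 830 in Dent (209 and 110). Of the 82 named agreeing genes none changed sign, and 53 were called without any one library. Besides these repeats, calls were lost for SLP3 (GRMZM2G114394) and GRMZM2G362298 with thinned counts and for smt1 (GRMZM2G122810) with all 47 libraries. The cause of these changes was not tested. Genes without a count in a class have no upper bound on their fold change at this depth.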

Other observations

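Of the transcription factor families not described above, NAC, WRKY and AP2 with EREB lay mostly below 0 in the tolerant lines, with few calls. All 11 NAC factors, regulators known from senescence and stress, had negative log2 differences (median -0.62), of which 1 was called lower. Of 12 WRKY factors, known from defence, 9 lay below 0 (median -0.54) and 1 was called lower, and of 13 AP2 and EREB factors 11 lay below 0 (median -0.47) and 1 was called lower. In none of the 3 families was a gene agreeing, and at an unadjusted p under 0.05 with edgeR's quasi-likelihood test 3, 4 and 4 were lower and 0, 0 and 0 higher. DESeq2 called 2, 1 and 1 of them lower. In other families the signs were more even. Of 27 MYB factors 15 lay above 0 (median 0.04), of 18 homeobox factors 9 (median 0.01), of 17 bZIP factors 8 (median -0.06), of 8 CO-like, DOF and circadian factors 4 (median 0.03) and of 13 bHLH factors 4 (median -0.25).

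Of 32 ribosomal protein genes 26 lay below 0 (median -0.24) with 0 called higher and 1 lower, and 4 were higher at an unadjusted p under 0.05. Of 17 antioxidant enzymes 0 were called (median 0.06), while 2 were higher and 1 lower at an unadjusted p under 0.05 and DESeq2 called 0.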
